A study of Mus musculus with 4 samples.

Results

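The interleukin-1 (IL-1) system and the inflammasome were followed in immune cells of the mouse spinal cord through 10 genes, chosen by their symbols, out of the 31053 listed in the count matrices. They were the ligands Il1a and Il1b, the receptor antagonist Il1rn, the receptor chains Il1r1 and Il1rap, the decoy receptor Il1r2, the inflammasome sensor Nlrp3, the caspases Casp1 and Casp4, and the cytokine Il18. All 10 were listed in the 4 matrices. Each matrix came from 1 single-cell library of cells sorted for the pan-leukocyte marker CD45 from C57BL/6 mice of both sexes, aged 3 months, and the labels name no transgene. Both uninjured libraries carried the label sham, with healthy spinal cord as their source: the standard sham library was dissociated in the usual way and the ActD sham library in the presence of actinomycin D (ActD), an inhibitor of transcription. The injured libraries were taken 3 and 14 days post injury (dpi), after a moderate contusion of the thoracic cord, and both were dissociated with ActD. The study's methods give more mice than libraries, as a total over the groups and not for each library.

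IL-1α and IL-1β signal through the receptor IL-1R1, which needs the accessory chain IL-1RAP to pass the signal on through MYD88. The antagonist IL-1RN occupies IL-1R1 without recruiting the accessory chain, and the decoy IL-1R2 binds ligand but lacks a signalling domain. IL-1β and IL-18 are made as inactive precursors that caspase-1 cleaves once a sensor such as NLRP3 has assembled an inflammasome, whereas IL-1α needs no inflammasome to be active. Mouse caspase-4, also called caspase-11, responds to lipopolysaccharide in the cytosol and cleaves the pore protein gasdermin D. Microglia, infiltrating macrophages and neutrophils are known sources of IL-1 in the injured cord. The counts are of RNA and hold no information on cleavage or release.

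Both sham libraries (standard, then ActD) and those of 3 and 14 dpi held 6827, 2439, 10763 and 11631 barcodes, of which 5035, 2135, 8214 and 9078 were kept as cells, with library medians of 7426 to 9672 unique molecular identifiers (UMIs, 1 for each captured molecule) per cell. Any pair of libraries shared 3 to 36 barcodes. Cells were clustered within each library without the 10 genes, and the clusters were called microglia-like, neutrophil-like and so on from fixed markers, shortened here to the bare name. In that order, microglia numbered 2631, 1669, 735 and 3373 cells, neutrophils 381, 99, 1699 and 1202 and B cells 242, 64, 133 and 174, and infiltrating macrophages were named only at 3 dpi (2817 cells). The B cells of a library served as its background for free RNA. A level is the CPM of a class, a gene's counts per 1000000 UMIs summed over its cells, with its exact 95% Poisson interval in parentheses. There was 1 library per condition, so no difference between conditions could be tested, and all intervals cover counting error only. Fewer transcripts per cell and fewer cells that hold any cannot be told apart from a sum. The matrix headers name software version 3.0.1 for standard sham and 3 dpi, but 3.1.0 for ActD sham and 14 dpi, so the comparisons between libraries of unlike versions cannot be told apart from the version.

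Il1a and Il1b are neighbours on the minus strand of chromosome 2 (chr2:129299610-129309972 and chr2:129364570-129371139, GRCm38), 54.6 kb apart, and Il1rn lies on the plus strand of the same chromosome (chr2:24336853-24351494). Casp1 (chr9:5298517-5307265) and Casp4 (chr9:5308828-5336783) lie 1562 bp apart on the plus strand of chromosome 9, which also holds Il18 (chr9:50554827-50581840). Il1r2 (chr1:40074079-40125231) and Il1r1 (chr1:40225080-40317257) are 99.8 kb apart on chromosome 1. Il1rap is at chr16:26581704-26730117 and Nlrp3 at chr11:59541568-59566956. The promoters of both ligands, whose levels spanned a wide range, are shown with that of Casp1, whose level varied less, so these 3 genes were chosen after their values were seen. Each sequence is 300 bases of the gene's own strand, from 250 before to 50 after the RefSeq start (GRCm38.p6), and capitals mark the letters TATAAA, which basal transcription factors can bind, and TGANTCA, an AP-1 site.
Il1a: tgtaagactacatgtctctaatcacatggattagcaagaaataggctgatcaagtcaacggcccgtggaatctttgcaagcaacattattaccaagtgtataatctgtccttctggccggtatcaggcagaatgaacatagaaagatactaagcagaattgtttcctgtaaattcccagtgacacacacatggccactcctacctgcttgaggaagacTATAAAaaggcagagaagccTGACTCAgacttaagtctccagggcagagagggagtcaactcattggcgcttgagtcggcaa
Il1b: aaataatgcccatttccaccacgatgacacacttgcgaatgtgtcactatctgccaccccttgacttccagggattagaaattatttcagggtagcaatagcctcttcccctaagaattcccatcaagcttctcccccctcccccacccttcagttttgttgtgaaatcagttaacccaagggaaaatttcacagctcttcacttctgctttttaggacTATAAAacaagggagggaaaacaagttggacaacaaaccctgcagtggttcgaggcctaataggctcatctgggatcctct
Casp1: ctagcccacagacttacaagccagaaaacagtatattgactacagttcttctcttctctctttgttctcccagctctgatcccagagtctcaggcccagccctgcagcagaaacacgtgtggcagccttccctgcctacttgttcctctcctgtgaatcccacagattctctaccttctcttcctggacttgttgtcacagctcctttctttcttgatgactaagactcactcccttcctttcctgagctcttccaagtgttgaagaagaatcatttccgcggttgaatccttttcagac
The windows are chr2:129309923-129310222 (Il1a, minus strand), chr2:129371090-129371389 (Il1b, minus strand) and chr9:5298267-5298566 (Casp1, plus strand). TATAAA began 32 bases before the start of Il1a and 31 bases before that of Il1b, TGANTCA began 12 bases before the start of Il1a, and the Casp1 window held neither. On both strands, TATAAA was found in 13.6% and TGANTCA in 7.81% of 32851 mouse promoters of this length. The 10 genes have 15 promoters in this table, and Il18, Il1a, Il1b and Il1rn held TATAAA and Il1a and Il1rn held TGANTCA in at least 1 of theirs, a count of genes that is not on the scale of these shares of promoters. These are matches of letters only.

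**Figure D1:**
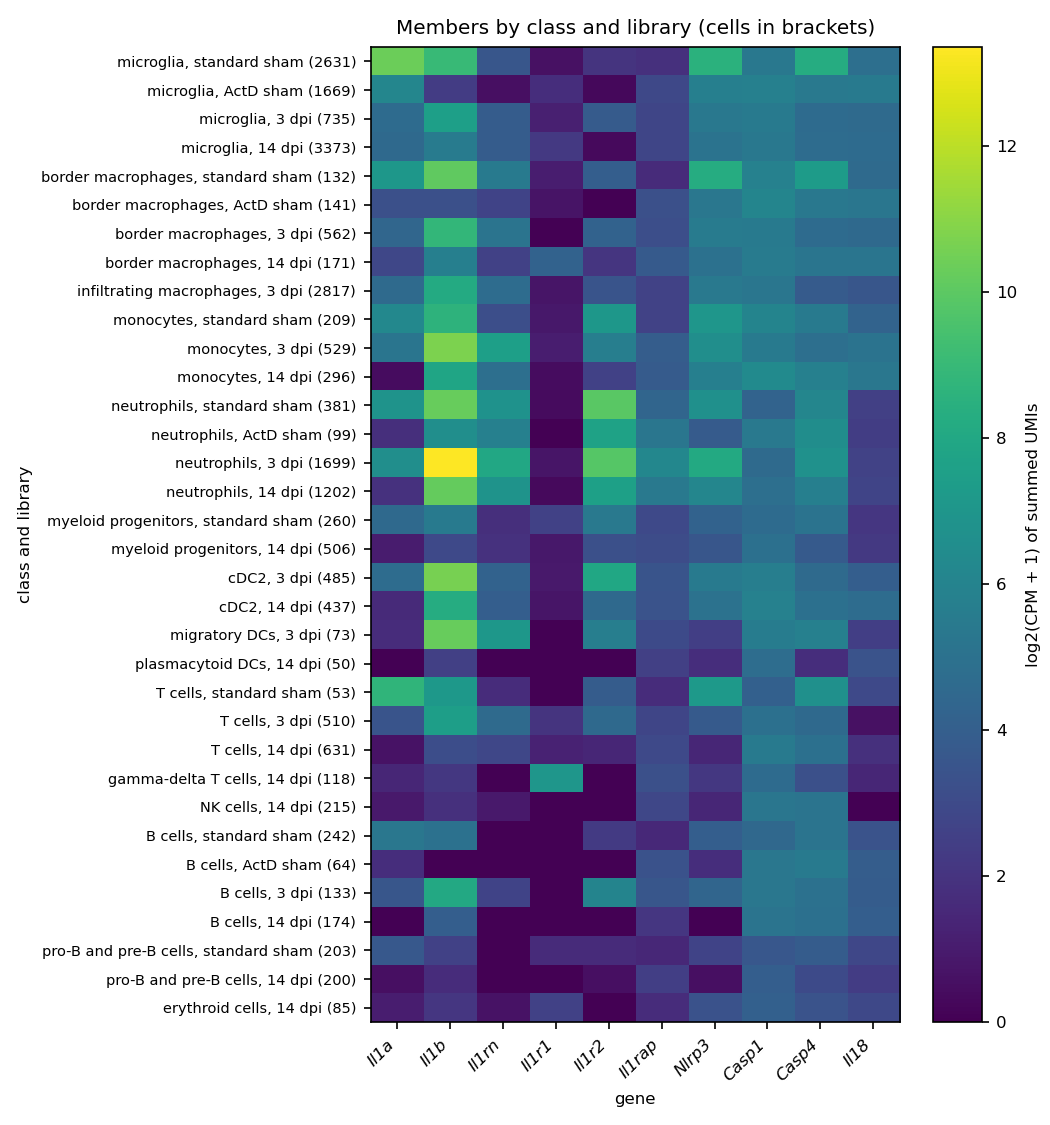
Level of the 10 genes (columns) as log2(CPM + 1) of summed UMIs, in each class of at least 50 cells in each library (rows, number of cells in brackets). The brightest field is Il1b in neutrophils at 3 dpi (10497 CPM), Il1a is brightest in standard sham microglia (1322 CPM), and Il1r1 is dark in most rows except γδ T cells at 14 dpi (131 CPM).

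Il1a, the ligand that needs no cleavage, had its highest level in standard sham microglia and stood far lower in all 3 libraries made with ActD. In microglia it stood at 1322 CPM (1306 to 1338) in the standard sham library, 70.3 CPM (66.4 to 74.4) in the ActD sham library, 24.4 CPM (22.2 to 26.8) at 3 dpi and 22.3 CPM (20.8 to 23.9) at 14 dpi. The standard sham level was 18.8-fold that of the ActD sham library (log2 ratio 4.23, 4.15 to 4.32), and both injured libraries were below the ActD sham library, with log2 ratios of -1.53 (-1.69 to -1.37) at 3 dpi and -1.66 (-1.79 to -1.53) at 14 dpi. The latter compares matrices of 1 software version. Microglia held 90.3%, 95.6%, 17.3% and 73.5% of all Il1a UMIs in the standard sham and ActD sham libraries and at 3 and 14 dpi, and infiltrating macrophages 45.04% at 3 dpi. After each cell was thinned to 1000 UMIs, an Il1a UMI was left in 55.1% (1449 of 2630 cells, 53.2 to 57.0%) of standard sham microglia and in 7.23%, 2.32% and 2.11% of those of the other libraries, with exact binomial intervals. In B cells the thinned shares were 4.55%, 0%, 0.752% and 0%, at median depths of 3731, 5810.5, 2512 and 3064 UMIs against 7629, 9374, 21978 and 9778 in microglia.

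The clusters of standard sham microglia were uneven in Il1a. Of the 8, 7 held 554 to 1967 CPM, above every microglial cluster of the ActD libraries (37.1 to 84.9 CPM in the ActD sham library, 20.3 to 27.3 CPM at 3 dpi and 12.5 to 35.5 CPM at 14 dpi). The other, 86 cells led by Cst3, Sparc and Crybb1 with a median of 2482 UMIs, held 99.5 CPM (64.4 to 147), which overlapped the highest ActD sham cluster, at 84.9 CPM (74.2 to 96.7). Their thinned shares were 9.30% and 9.81%. The 20 immediate early genes, which respond to handling of cells, summed to 53044, 1372, 6310 and 1053 CPM in microglia in the standard sham and ActD sham libraries and at 3 and 14 dpi. Their part in the level of Il1a was not tested.

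In neutrophils Il1a stood at 114 CPM (102 to 126) in the standard sham library, 2.45 CPM (0.795 to 5.71) in the ActD sham library, 94.97 CPM (85.9 to 105) at 3 dpi and 2.76 CPM (1.71 to 4.21) at 14 dpi. The standard sham and 3 dpi libraries were high and the others low, and the log2 ratio of 3 dpi over ActD sham, 5.28 (4.04 to 6.91), had the opposite sign to that of microglia. The ActD sham value rested on 5 UMIs. The neutrophil clusters of 3 dpi ran from 9.56 CPM (1.16 to 34.5) in 28 cells to 110 CPM (98.2 to 123) in 1263 cells. At 3 dpi an Il1a UMI was left in 7.86% (133 of 1693 cells, 6.62 to 9.24%) of thinned neutrophils and in 0.752% (1 of 133 cells, 0.0190 to 4.12%) of B cells, at median depths of 2315 and 2512 UMIs, and without thinning in 15.8% and 3.01%. T cells of the standard sham library held 429.6 CPM (371 to 495) of Il1a, but in these 53 cells the microglial markers summed to 2614 CPM, against 454 CPM in B cells.

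**Figure D2:**
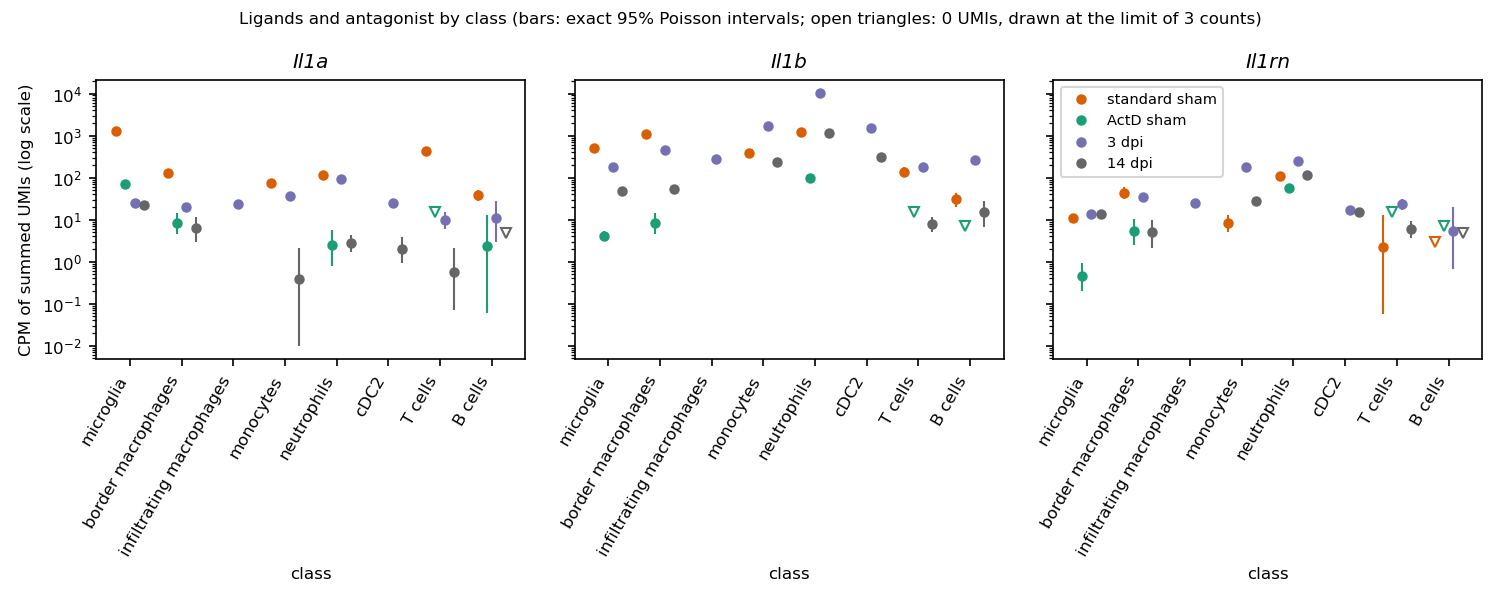
Il1a, Il1b and Il1rn (panels) in 8 classes, as CPM of summed UMIs on a log axis, coloured by library, with exact 95% Poisson intervals and open triangles at the limit of 3 counts where there were 0 UMIs. Il1a of microglia lies at 1322 CPM in the standard sham library and at 70.3 CPM or less in the others, and Il1b of neutrophils lies highest at 3 dpi.

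Il1b, the ligand that caspase-1 matures, was highest in neutrophils at 3 dpi. In neutrophils it stood at 1228 CPM (1189 to 1268) in the standard sham library, 97.4 CPM (84.4 to 112) in the ActD sham library, 10497 CPM (10399.7 to 10595) at 3 dpi and 1182 CPM (1158 to 1207) at 14 dpi. The 3 dpi level was far above the others, the ActD sham level was the lowest, and the standard sham and 14 dpi intervals overlapped. The log2 ratio was 6.75 (6.55 to 6.96) for 3 dpi over ActD sham, -3.15 (-3.18 to -3.12) for 14 over 3 dpi and 3.60 (3.40 to 3.81) for 14 dpi over ActD sham. An Il1b UMI was left in 97.8% (1656 of 1693 cells, 97.0 to 98.5%) of thinned neutrophils at 3 dpi, against 54.1%, 8.08% and 41.3% in the standard sham, ActD sham and 14 dpi libraries. Neutrophils were 20.7% of the cells at 3 dpi and 13.2% at 14 dpi and held 54.0% and 62.3% of the Il1b UMIs of these libraries. In the ActD sham library they were 4.64% of the cells and held 55.7%, while in the standard sham library they held 20.9% and microglia 57.1%.

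The neutrophils of the 4 libraries differed in makeup, and their clusters differed in Il1b as widely as the libraries did. The ActD sham neutrophils were 1 cluster led by the granule genes Ltf and Ngp. In the standard sham library 138 cells with Ly6g and Ltf among their leading genes held 316 CPM (289 to 345) and 243 cells led by Retnlg, Mmp8 and Mmp9 held 2198 CPM (2123 to 2275). At 3 dpi 1263 cells led by Hdc, G0s2 and Cxcr2 held 10613 CPM (10495 to 10733), 408 cells led by Stfa2l1 and S100a9 held 11756 CPM (11557 to 11957), and 28 cells led by Retnlg and Ngp held 2099 CPM (1907 to 2305). At 14 dpi 335 cells led by Cxcl2 and Stfa2l1, with a median of 2456 UMIs, held 7514 CPM (7337 to 7695), 523 cells led by Retnlg and Mmp9 held 726 CPM (695 to 757), and 344 cells with Ly6g and Ltf among their leading genes held 33.5 CPM (28.0 to 39.8). Over only the clusters with Ngp or Ltf among their 10 leading genes, a comparison chosen after the clusters were seen, the log2 ratio of Il1b was 4.43 (4.18 to 4.68) for 3 dpi over ActD sham, -5.97 (-6.26 to -5.68) for 14 over 3 dpi and -1.54 (-1.87 to -1.21) for 14 dpi over ActD sham, the last with the opposite sign to the value over all neutrophils. Within this set the standard sham and 14 dpi clusters were led by Retnlg and Mmp9, with Ltf lower in the list and no Ngp. In neutrophils the 9 neutrophil markers summed to 316738, 350229, 56393 and 369550 CPM in the standard sham and ActD sham libraries and at 3 and 14 dpi, and the immediate early genes to 11995, 2862, 26568 and 6826 CPM. The part of either in the Il1b level was not tested.

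**Figure D3:**
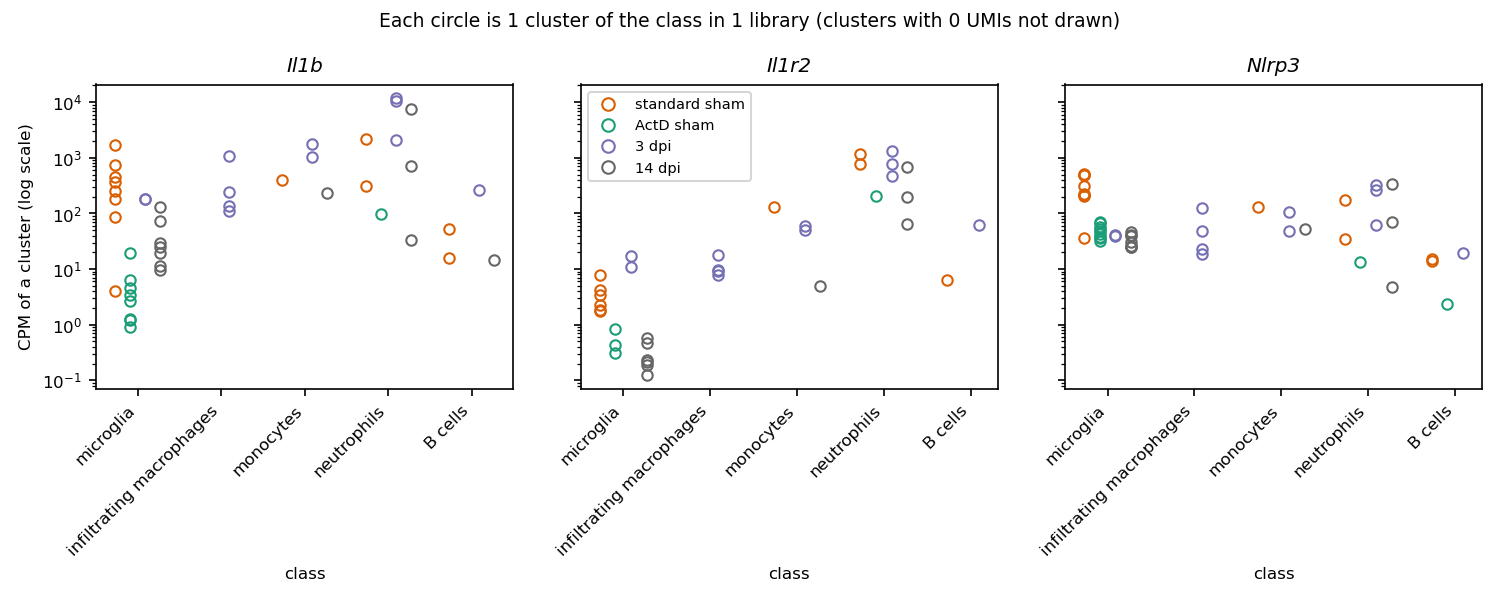
Il1b, Il1r2 and Nlrp3 (panels) in each cluster of microglia, infiltrating macrophages, monocytes, neutrophils and B cells, as CPM on a log axis, coloured by library, with clusters at 0 UMIs not drawn. Neutrophil clusters at 14 dpi ran from 33.5 to 7514 CPM of Il1b, and 1 of the 4 clusters of infiltrating macrophages, at 1069.9 CPM, lay above the B cells of its library.

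In microglia Il1b stood at 507 CPM (497 to 517) in the standard sham library, 4.20 CPM (3.28 to 5.28) in the ActD sham library, 182 CPM (176 to 188) at 3 dpi and 46.9 CPM (44.7 to 49.1) at 14 dpi. Over the whole class the standard sham level was highest. The summed 72 UMIs of the ActD sham library could not be set apart from B cells. Those B cells held 0 UMIs and so up to 7.10 CPM. By cluster, standard sham microglia of 723 and 86 cells held 84.8 and 3.98 CPM, below both 3 dpi clusters (180 and 185 CPM). A cluster of 95 cells held 182 CPM (136 to 239), and the rest 251 to 1726 CPM. In the ActD sham library 35 of the 72 UMIs were in a cluster of 113 cells. That cluster held 19.2 CPM (13.4 to 26.8), above the limit of B cells. At 3 dpi microglia lay below the B cells of the same library, which held 264 CPM (214 to 323), with a log2 ratio of -0.54 (-0.83 to -0.23). Infiltrating macrophages, at 282 CPM (277 to 287), lay at the level of B cells (log2 ratio 0.09, -0.19 to 0.40). The thinned shares were 15.5% (114 of 734 cells, 12.99 to 18.4%) in microglia, 20.8% (585 of 2817 cells, 19.3 to 22.3%) in infiltrating macrophages and 21.1% (28 of 133 cells, 14.5 to 29.0%) in B cells, at median depths of 21978, 16153 and 2512 UMIs. By level and by share, neither class as a whole stood above the B cells of 3 dpi, which were far shallower. Both measures are relative to a cell's own UMIs, so they cannot show whether these classes held more Il1b per cell than B cells. Summed Il1b UMIs were 96 in the 133 B cells, 3252 in the 735 microglia and 13600 in the 2817 infiltrating macrophages. Per cell, microglia and infiltrating macrophages thus held more Il1b UMIs than B cells. The part of cell depth and of free RNA in this was not tested. Among the 4 clusters of infiltrating macrophages, 517 cells led by Ccl24, Ppbp and Cxcl1 held 1069.9 CPM (1045 to 1096), and the other 3 held 110.1 to 239.7 CPM.

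Other myeloid classes at 3 dpi stood above the B cells. Monocytes held 1669 CPM (1631 to 1707), with a log2 ratio over B cells of 2.66 (2.37 to 2.96). Type 2 conventional dendritic cells (cDC2), which present antigen to helper T cells, held 1544 CPM (1508 to 1581) and a ratio of 2.55 (2.26 to 2.85). Border macrophages, the resident macrophages of the meninges and vessels, held 454 CPM (438 to 471) and a ratio of 0.78 (0.49 to 1.09), while neutrophils had 5.31 (5.02 to 5.62). At 14 dpi monocytes held 234 CPM (216 to 254) and cDC2 307 CPM (291 to 324), with log2 ratios to 3 dpi of -2.83 (-2.95 to -2.71) and -2.33 (-2.42 to -2.25). An unnamed cluster of 102 cells at 3 dpi led by Acod1, Mirt1 and 4833407H14Rik, with a median of 2053 UMIs, held 2546 CPM (2338 to 2769).

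Free RNA from 1 source keeps its genes in 1 ratio, so Il1b was also counted per 100 UMIs of the 9 neutrophil markers. At 3 dpi there were 18.6 (18.4 to 18.8) in neutrophils, 39.3 (30.7 to 50.02) in B cells, 44.4 (42.6 to 46.3) in microglia and 55.6 (54.4 to 56.7) in infiltrating macrophages. The microglial interval lay within that of B cells, infiltrating macrophages lay wholly above both, and neutrophils lay below all of these. Since B cells did not hold the ratio of neutrophils, free RNA from 1 source was not shown. A ratio above that of B cells thus cannot part free RNA from a class's own transcripts. Per 100 UMIs of S100a8 and S100a9 alone there were 48.0 (37.2 to 61.5) in B cells, 60.1 (57.5 to 62.8) in microglia and 67.5 (66.1 to 69.0) in infiltrating macrophages, again with only the last wholly above B cells. Monocytes, at 139.5 (135 to 145), and cDC2, at 386 (366 to 407), lay far above. At 14 dpi there were 0.320 (0.313 to 0.326) in neutrophils, 1.498 (0.681 to 2.86) in B cells and 5.32 (5.07 to 5.59) in microglia. Microglia at 14 dpi were above B cells in level as well, with a log2 ratio of 1.66 (0.73 to 2.79), and their clusters were uneven: 128 CPM (121 to 136) in 600 cells led by Ccl4 and Ccl3, 73.7 CPM (58.3 to 91.8) in 82 cells led by Ccl12 and Cxcl10, and 9.56 to 29.1 CPM in the other 5.

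Il1rn, whose product blocks IL-1R1, was higher in neutrophils than in microglia and B cells of every library. In neutrophils it stood at 110.3 CPM (98.9 to 123) in the standard sham library, 56.3 CPM (46.5 to 67.6) in the ActD sham library, 255 CPM (240.3 to 271) at 3 dpi and 114 CPM (107 to 122) at 14 dpi. The 3 dpi level was the highest and the ActD sham level the lowest, with log2 ratios of 2.18 (1.90 to 2.47) for 3 dpi over ActD sham and -1.16 (-1.29 to -1.03) for 14 over 3 dpi. The medians over all genes were 0.95 and -1.13, so for 14 over 3 dpi Il1rn lay near that of all genes. In the clusters with Ngp or Ltf its log2 ratio for 3 dpi over ActD sham was -0.56 (-1.80 to 0.47), on 8 UMIs at 3 dpi. By cluster, the 335 neutrophils led by Cxcl2 at 14 dpi held 516 CPM (470 to 565), above the 38.2 to 277 CPM of 3 dpi. Those led by Retnlg and Mmp9 at 14 dpi held 95.5 CPM and those with Ltf 33.5 CPM. An unnamed cluster of 102 cells at 3 dpi, not counted as neutrophils, held more, at 1141 CPM (1002 to 1293). B cells held 2 UMIs at 3 dpi and 0 in the other libraries, so that neutrophils were at least 37.7-fold, 7.93-fold and 23.1-fold higher in the standard sham, ActD sham and 14 dpi libraries, against a floor of 3 UMIs in the summed B cells. Monocytes held 8.40, 182 and 28.2 CPM in the standard sham, 3 dpi and 14 dpi libraries, no monocyte cluster being named in the ActD sham library.

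In microglia Il1rn stood at 10.8 CPM (9.46 to 12.4) in the standard sham library, 0.466 CPM (0.201 to 0.919) in the ActD sham library, 13.9 CPM (12.2 to 15.8) at 3 dpi and 13.5 CPM (12.4 to 14.8) at 14 dpi. The ActD sham library alone was low, on 8 UMIs, and the log2 ratio of 14 dpi over ActD sham was 4.86 (3.87 to 6.08). At 14 dpi microglia were at least 2.74-fold above B cells. The clusters led by Ccl4 and Ccl3 (40.1 CPM) and by Ccl12 and Cxcl10 (39.2 CPM) stood above the other 5 (1.91 to 5.99 CPM), as they did for Il1b. Per 100 Il1b UMIs, neutrophils held 8.98 (8.01 to 10.04), 57.8 (45.5 to 73.1), 2.43 (2.29 to 2.58) and 9.65 (8.99 to 10.3) Il1rn UMIs in the standard sham and ActD sham libraries and at 3 and 14 dpi. Over all neutrophils the ratio of antagonist to ligand was thus lowest at 3 dpi and highest in the ActD sham library. The intervals of the other libraries overlapped. Over the clusters with Ngp or Ltf, Il1rn and Il1b UMIs numbered 129 and 129 at 14 dpi and 115 and 199 in the ActD sham library. They numbered 121 and 501 in the standard sham library and 8 and 439 at 3 dpi. There the ratio was thus highest at 14 dpi and again lowest at 3 dpi. In monocytes the ratio per 100 Il1b UMIs was 10.9 (10.1 to 11.7) at 3 dpi and 12.03 (9.32 to 15.3) at 14 dpi.

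**Figure D4:**
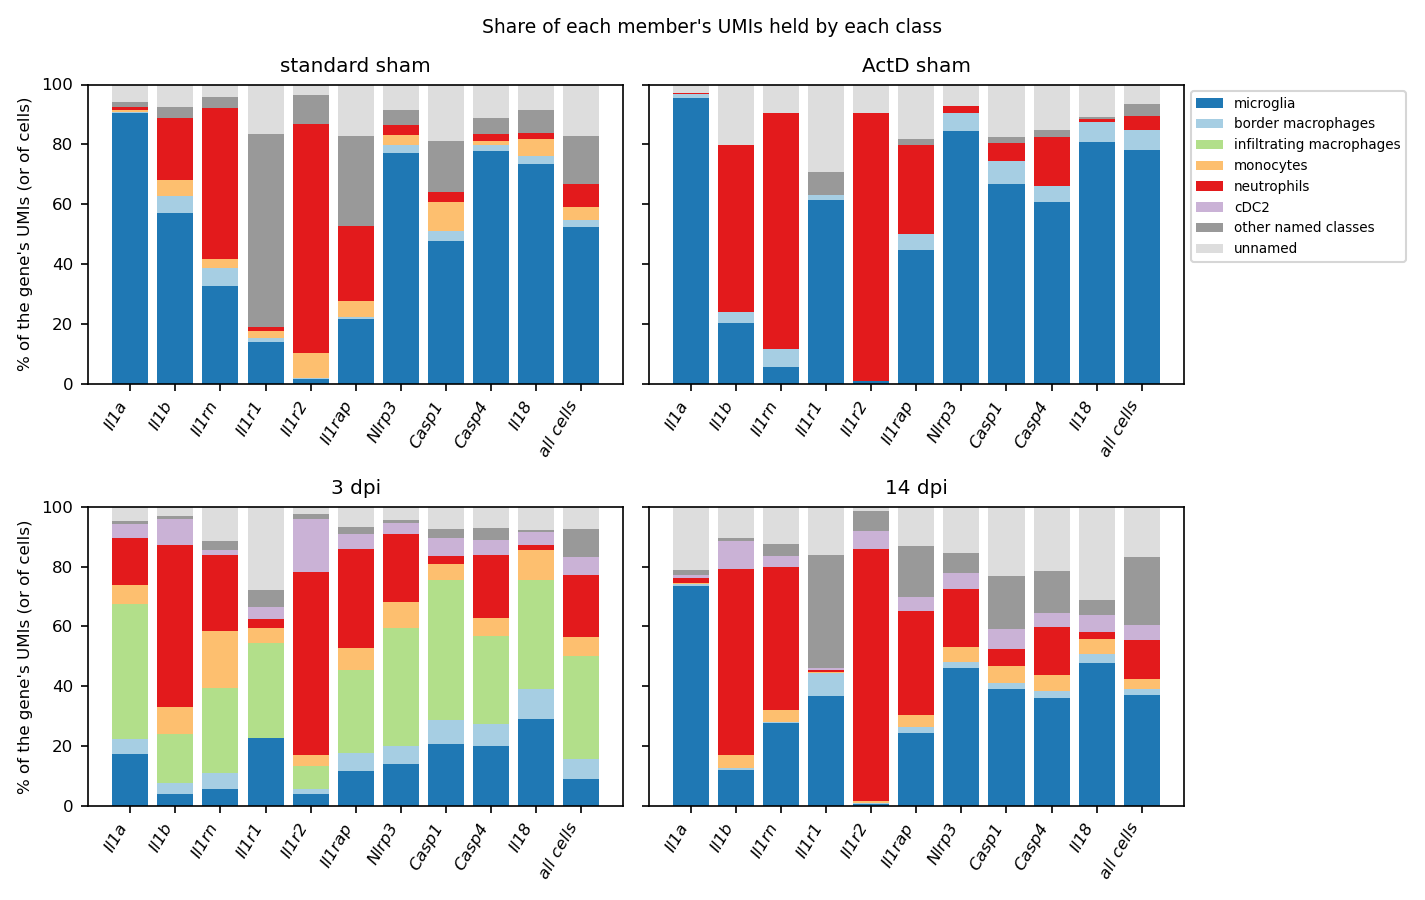
Share of the UMIs of each of the 10 genes held by each class (stacked bars, percent of the gene's UMIs in a library, 1 panel per library), with the share of cells in the last bar. Neutrophils hold 54.0% of Il1b UMIs at 3 dpi and most of the Il1r2 UMIs in all 4 libraries, and microglia hold most of the Il1a UMIs except at 3 dpi (17.3%).

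Il1r2, the decoy receptor, was mostly a neutrophil transcript in all 4 libraries. In neutrophils it stood at 968 CPM (933 to 1003) in the standard sham library, 209.5 CPM (190.2 to 230.4) in the ActD sham library, 908 CPM (879.5 to 937) at 3 dpi and 190.2 CPM (181 to 200.3) at 14 dpi. The standard sham and 3 dpi levels were high and the others low, and the interval of the log2 ratio of 14 dpi over ActD sham, -0.14 (-0.30 to 0.02), reached 0. Neutrophils held 76.4%, 89.5%, 60.9% and 84.3% of its UMIs in the standard sham and ActD sham libraries and at 3 and 14 dpi. Next at 3 dpi were cDC2, with 250.1 CPM (236 to 265) and a log2 ratio over B cells of 1.98 (1.39 to 2.65), against 23.0 CPM (18.7 to 28.0) at 14 dpi. Microglia held 2.99, 0.233, 13.5 and 0.269 CPM, and at 3 dpi they lay below B cells (log2 ratio -2.23, -2.85 to -1.54), as did infiltrating macrophages (-2.63, -3.24 to -1.96). These levels are relative to a cell's own UMIs and cannot show which class held more Il1r2 per cell. Summed UMIs at 3 dpi were 23 in the 133 B cells, 242 in the 735 microglia and 492 in the 2817 infiltrating macrophages. Per cell, microglia thus held more Il1r2 UMIs than B cells, and infiltrating macrophages about as many. The part of cell depth and of free RNA in this was not tested. The microglial values rested on 4 UMIs in the ActD sham and 10 UMIs in the 14 dpi library.

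Il1r1, the signalling receptor, was scarce in myeloid cells and stood highest in 2 small classes at 14 dpi. The γδ T cells (118 cells with Trdc, Tcrg-C1 and Il17a among their leading genes) held 131 CPM (103 to 164, 75 UMIs). The endothelial cells (31 cells led by Cldn5 and Ly6c1, a type that a CD45 sort should remove) held 148 CPM (104 to 203, 37 UMIs). B cells held 0 UMIs in every library, so that these classes were at least 26.4-fold and 29.8-fold higher. The other T cells at 14 dpi held 1.45 CPM (0.470 to 3.38, 5 UMIs). The γδ T cells were 1.30% of the cells of the library and held 20.5% of its Il1r1 UMIs. Microglia held 0.540, 2.33, 1.29 and 3.63 CPM, and neutrophils 0.325, 0, 0.711 and 0.263 CPM. The 14 dpi cluster named from border macrophage markers held 17.6 CPM (11.7 to 25.4, 28 UMIs), but it was led by Dcn and Col1a2, genes of fibroblasts, and the 5 fibroblast markers summed to 1885 CPM in it, so border macrophages are not compared at 14 dpi.

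Il1rap, the accessory chain, stood at 19.8 CPM (15.2 to 25.5) in the standard sham library, 36.2 CPM (28.4 to 45.5) in the ActD sham library, 71.3 CPM (63.5 to 79.8) at 3 dpi and 41.9 CPM (37.4 to 46.7) at 14 dpi in neutrophils. Over all neutrophils it was highest at 3 dpi, with a log2 ratio over ActD sham of 0.98 (0.61 to 1.36), near the median of 0.95 over all genes. By cluster it was highest in the 335 cells led by Cxcl2 at 14 dpi, at 260 CPM (228 to 295), against 33.5 to 111 CPM at 3 dpi. In microglia it held 2.60, 6.53, 5.98 and 5.99 CPM and in B cells 1.95, 9.47, 11.0 and 3.30 CPM on 2, 4, 4 and 2 UMIs. Neutrophils thus held transcripts of the accessory chain and the decoy with few or no UMIs of Il1r1.

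Nlrp3, the sensor, was higher with the standard dissociation in microglia, and at 3 dpi in neutrophils. In microglia it stood at 364 CPM (356 to 373) in the standard sham library, 53.6 CPM (50.2 to 57.2) in the ActD sham library, 40.1 CPM (37.3 to 43.2) at 3 dpi and 33.5 CPM (31.7 to 35.5) at 14 dpi. The ActD libraries lay close together and the standard library apart, with a log2 ratio over ActD sham of 2.76 (2.66 to 2.86). In neutrophils it stood at 102 CPM (91.2 to 114) in the standard sham library, 13.2 CPM (8.71 to 19.2) in the ActD sham library, 274 CPM (258 to 290.3) at 3 dpi and 68.5 CPM (62.8 to 74.7) at 14 dpi. The 3 dpi level was highest and the ActD sham level, on 27 UMIs, lowest. At 14 dpi the neutrophils led by Cxcl2 held 335 CPM (298 to 375), those led by Retnlg and Mmp9 70.3 CPM (60.9 to 80.7), and those with Ltf 4.67 CPM (2.77 to 7.38), the same order as for Il1b. The 517 infiltrating macrophages led by Ccl24 held 126 CPM (118 to 135), and the other 3 clusters 18.4 to 48.2 CPM. The 20 mast cells and basophils of the standard sham library held 914 CPM (797 to 1045, 216 UMIs), and the 32 of the 14 dpi library 73.1 CPM (44.0 to 114, 19 UMIs).

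The neighbouring caspases parted in the microglia of the standard sham library, while in its neutrophils both lay below the ActD sham levels. Casp1, the enzyme of the canonical inflammasome, stood at 39.1 CPM (36.4 to 41.9) in the standard sham library, 55.5 CPM (52.0 to 59.1) in the ActD sham library, 43.4 CPM (40.4 to 46.6) at 3 dpi and 39.9 CPM (37.9 to 42.0) at 14 dpi in microglia. In neutrophils it held 18.2, 41.1, 23.2 and 28.1 CPM and in B cells 21.5, 37.9, 38.5 and 34.6 CPM, so that the B cell levels lay between the lowest and the highest of these 8 values. Casp4 stood at 313 CPM (305 to 321) in the standard sham library, 41.7 CPM (38.7 to 44.9) in the ActD sham library, 24.1 CPM (21.9 to 26.5) at 3 dpi and 25.2 CPM (23.7 to 26.9) at 14 dpi in microglia. The log2 ratio of standard over ActD sham was 2.91 (2.80 to 3.02) for Casp4 and -0.51 (-0.64 to -0.37) for Casp1. The value of Casp1 lay near the median of -0.56 over all genes. Among the standard sham microglial clusters Casp4 was 19.9 CPM in the 86 cells led by Cst3, which were also lowest in Il1a, Il1b (3.98 CPM) and Nlrp3 (35.8 CPM), and 158 to 377 CPM in the other 7. At 14 dpi it was 94.2 CPM in the 82 microglia led by Ccl12 and Cxcl10, with Ifit2 and Ifit3 also among their leading genes, and 15.5 to 36.3 CPM in the other 6. In neutrophils Casp4 held 68.0, 93.0, 108 and 53.6 CPM and in B cells 34.2, 44.98, 30.3 and 29.7 CPM.

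Il18, the other cytokine that caspase-1 matures, stayed within a 2-fold range between the libraries over all microglia, but not between their clusters. In microglia it stood at 28.8 CPM (26.5 to 31.2) in the standard sham library, 42.4 CPM (39.4 to 45.6) in the ActD sham library, 23.8 CPM (21.6 to 26.2) at 3 dpi and 24.9 CPM (23.3 to 26.5) at 14 dpi. The ActD sham library was the highest, with log2 ratios to it of -0.56 (-0.72 to -0.40) in the standard sham library and -0.83 (-1.01 to -0.66) at 3 dpi. The medians over all genes were -0.56 and -0.55, so in the standard sham library Il18 lay at that of all genes. Border macrophages held 23.6, 36.8 and 22.5 CPM in the standard sham and ActD sham libraries and at 3 dpi. Infiltrating macrophages held 11.0 CPM (10.1 to 11.996), with a log2 ratio to the microglia of the library of -1.11 (-1.30 to -0.92). Neutrophils held 4.88, 4.41, 5.21 and 5.64 CPM, below the 9.76, 14.2, 13.8 and 14.8 CPM of B cells. The B cell values rested on 6, 5 and 9 UMIs in the ActD sham, 3 dpi and 14 dpi libraries. The intervals of neutrophils and B cells overlapped in every library, as at 2.01 to 8.36 CPM and 5.21 to 30.9 CPM in the ActD sham library. At 14 dpi the 335 neutrophils led by Cxcl2 held 27.6 CPM (17.9 to 40.8). The 82 microglia led by Ccl12 and Cxcl10 in that library held 73.7 CPM (58.3 to 91.8), and its other microglial clusters 17.7 to 36.1 CPM.

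**Figure D5:**
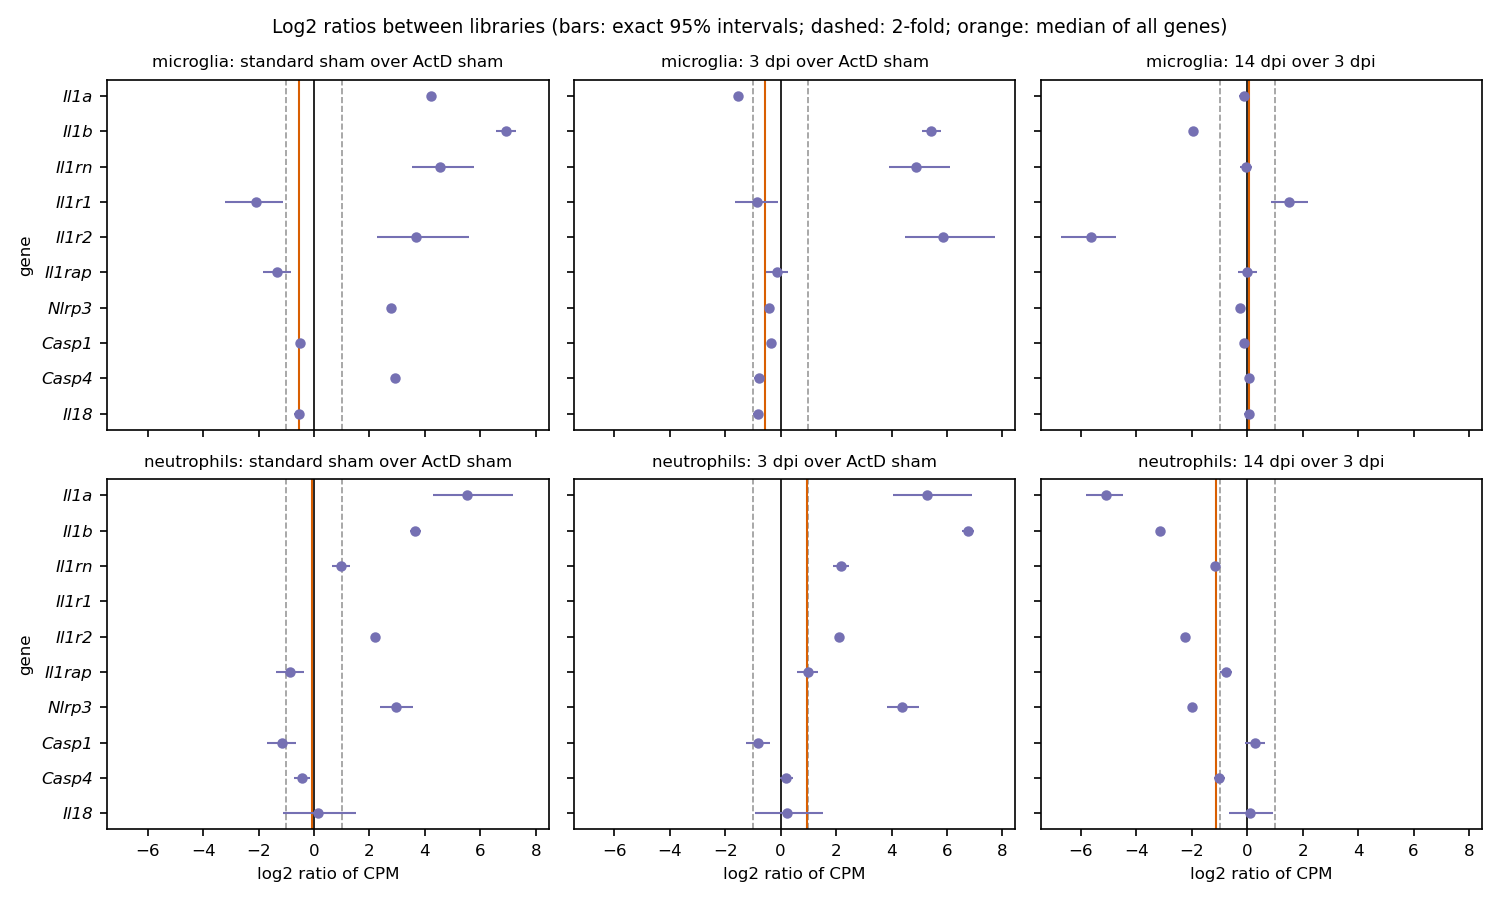
Log2 ratio of CPM of the 10 genes in microglia (top) and neutrophils (bottom) for standard over ActD sham, 3 dpi over ActD sham and 14 over 3 dpi, with exact 95% intervals, 2-fold (dashed) and the median of all genes (orange), where the pair held 20 UMIs or more. Il1b lies at 6.92, 5.44 and -1.96 in microglia and at 3.66, 6.75 and -3.15 in neutrophils.

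Counted over the 10 genes with at least 20 UMIs in a pair of sums, 6 of 10 were at least 2-fold higher in standard than in ActD sham microglia, against 6.6% of 12155 genes, and 2 at least 2-fold lower, against 23.5%. The former were Il1a, Il1b, Il1rn, Il1r2, Nlrp3 and Casp4, and the latter Il1r1 (-2.11) and Il1rap (-1.33). The median log2 ratio was 2.83 over the 10 genes and -0.56 over all genes. At 3 dpi over ActD sham, 3 of 10 were higher (Il1b, Il1rn and Il1r2), against 14.0% of all genes, and 1 was lower (Il1a), against 33.7%, with medians of -0.39 and -0.55. Of the higher ones, Il1b and Il1r2 lay below the B cells at 3 dpi in CPM, but above them in UMIs per cell, at a greater depth. At 14 over 3 dpi, 1 of 10 was higher (Il1r1, 1.496, 0.85 to 2.20), against 12.6%, and 2 were lower (Il1b and Il1r2), against 14.2%. At 14 dpi over ActD sham, 2 of 9 were higher (Il1b and Il1rn), against 5.37%, and 1 was lower (Il1a), against 17.7%. These comparisons share the ActD sham or the 3 dpi library.

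In neutrophils, 4 of 9 genes were at least 2-fold higher in the standard than in the ActD sham library (Il1a 5.54, Il1b 3.66, Il1r2 2.21 and Nlrp3 2.95), against 15.2% of 7629 genes, and Casp1 was lower (-1.17), against 12.7%. At 3 dpi over ActD sham, 5 of 9 were higher, near the 49.3% of all genes, and 0 lower, against 8.41%, with medians of 2.11 over these genes and 0.95 over all. At 14 over 3 dpi, 6 of 9 were lower, near the 54.7% of all genes, and 0 higher, against 5.91%, with medians of -1.16 and -1.13. The counts across the injury libraries were thus close to those of all genes. At 14 dpi over ActD sham, matrices of 1 software version, 3 of 9 were higher (Il1b, Il1rn 1.02 and Nlrp3 2.37), against 7.46%, and 0 lower, against 8.5%. Over the clusters with Ngp or Ltf, this comparison had 0 higher and 5 lower: Il1b (-1.54), Il1r2 (-1.71), Il1rap (-1.96), Nlrp3 (-1.501) and Casp4 (-1.53). There Il1rn (-0.75) also had the opposite sign to its value over all neutrophils. Scaling factors by the trimmed mean of M-values (TMM), which centres most genes on no change, differed between the libraries by -0.07, 0.81 and -1.16 on the log2 scale in neutrophils and by -0.55, -0.51 and -0.05 in microglia, for standard over ActD sham, 3 dpi over ActD sham and 14 over 3 dpi, and are subtracted from the log2 ratios. TMM scaling gave 5 higher and 1 lower at 3 dpi over ActD sham in neutrophils and 2 higher and 3 lower at 14 over 3 dpi.

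In border macrophages, Il1a, Il1b, Nlrp3 and Casp4 were highest in the standard sham library too. Il1b stood at 1085, 8.45 and 454 CPM, Il1a at 132, 8.45 and 20.2 CPM, Nlrp3 at 306, 38.6 and 45.8 CPM and Casp4 at 160.1, 39.8 and 24.7 CPM in the standard sham and ActD sham libraries and at 3 dpi, and Casp1 at 57.0, 66.4 and 44.9 CPM. These 4 and Il1rn made 5 of 7 genes at least 2-fold higher in the standard than in the ActD sham library, against 5.46% of all genes, and 0 were lower, against 18.3%. At 3 dpi over ActD sham, 4 of 9 were higher (Il1a, Il1b, Il1rn and Il1r2), against 11.2%, and 0 lower, against 20.7%. Of the higher ones, Il1r2 lay below the B cells at 3 dpi, at 17.6 against 63.3 CPM, which cannot show which class held more per cell. The Il1a interval at 3 dpi (16.9 to 23.97 CPM) overlapped that of B cells (3.00 to 28.2 CPM). Il1b and Il1rn lay above the B cells, with Il1rn intervals of 30.02 to 39.2 CPM against 0.667 to 19.9 CPM. The ActD sham level rested on 14 UMIs each of Il1a and Il1b, 9 of Il1rn and 0 of Il1r2. The immediate early genes summed to 38290, 1873 and 8782 CPM there, and the fibroblast markers to 8.60, 506 and 12.03 CPM. The part of either was not tested.

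At 14 over 3 dpi, 4 of 9 genes were at least 2-fold lower in monocytes, against 8.88% of all genes, and 0 higher, against 20.8%. They were Il1a (-6.56, -11.87 to -4.06, on 1 UMI at 14 dpi), Il1b (-2.83), Il1rn (-2.69) and Il1r2 (-3.38), while Casp1 (0.95, 0.67 to 1.24) and Casp4 (0.94, 0.59 to 1.29) had the opposite sign. The 3 dpi monocytes were 2 clusters, of 440 and 89 cells. These held 207 and 17.0 CPM of Il1rn, 35.3 and 98.5 CPM of Casp1 and 23.4 and 62.9 CPM of Casp4. At 14 dpi monocytes held 28.2, 84.2 and 54.9 CPM of the same genes, so the sign for each depended on the cluster. Il1a, Il1b and Il1r2 were above 14 dpi in both clusters. In cDC2, 3 of 9 were lower, Il1a (-3.64), Il1b (-2.33) and Il1r2 (-3.44), against 5.69%, and 0 higher, against 8.22%. The Il1a interval of cDC2 at 3 dpi (21.1 to 30.7 CPM) overlapped that of B cells (3.00 to 28.2 CPM).

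Against the B cells of the 3 dpi library, 7 of 9 genes were at least 2-fold higher in neutrophils (23.0% of all genes), 4 of 10 in infiltrating macrophages (26.0%) and 4 of 10 in microglia (27.5%). At least 2-fold lower were 1, 3 and 1 (of all genes 14.8%, 27.8% and 19.3%), and the median log2 ratios were 2.94, -0.30 and 0.03. The counts of both macrophage classes include Il1r1, which B cells held at 0 UMIs and so at up to 8.26 CPM, above the 0.664 and 1.29 CPM of these classes. The B cells held 4 UMIs of Il1a, 2 of Il1rn and 7 of Nlrp3.

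Cells with and without an Il1b UMI were compared within a library after thinning to 1000 UMIs, as a description, since cells of 1 library are not replicates. In standard sham microglia, Il1a was found in 73.5% (69.0 to 77.7%) of the 415 cells with Il1b and in 51.6% (49.5 to 53.7%) of the 2215 without, and Nlrp3 in 36.6% (32.0 to 41.5%) and 25.6% (23.8 to 27.5%). The clusters of these microglia differ in all of these genes. Clusters of 756 and 723 cells had thinned shares of 76.7% and 36.2% for Il1a, 27.0% and 4.43% for Il1b and 36.2% and 21.4% for Nlrp3. In 3 dpi microglia the shares with Il1a were 2.63% (0.546 to 7.498%) and 2.26% (1.24 to 3.76%), with overlapping intervals. In 14 dpi neutrophils, Il1r2 was found in 39.6% (35.3 to 44.1%) of the 497 cells with Il1b and in 11.1% (8.84 to 13.6%) of the 705 without. There Nlrp3 was found in 21.3% (17.8 to 25.2%) and 2.84% (1.74 to 4.35%), and Il1rn in 20.9% (17.4 to 24.8%) and 8.37% (6.43 to 10.7%). The clusters of these neutrophils differ in all of these genes, as given above for Il1b, Il1rn and Nlrp3. For Il1r2, cells led by Cxcl2 held 692 CPM, those led by Retnlg and Mmp9 202 CPM and those with Ltf 63.8 CPM.

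Of 33 other genes of the pathway, taken as a list, 3 of 29 with enough UMIs were at least 2-fold higher and 10 lower in standard than in ActD sham microglia, 3 and 14 of 30 at 3 dpi over ActD sham, and 6 and 5 of 30 at 14 over 3 dpi. Of all genes, 6.6% and 23.5%, 14.0% and 33.7%, and 12.6% and 14.2% were higher and lower in these comparisons. Ninj1, which ruptures the membrane of dying cells, stood at 137 CPM in the standard sham, 47.3 CPM in the ActD sham and 115 CPM in the 3 dpi microglia. The adaptor Myd88 stood at 77.2 CPM in the standard and 36.4 CPM in the ActD sham library, and Mefv, the pyrin sensor, at 1.52 and 0.0583 CPM. Il33, an alarmin, held 0 UMIs in the standard and 33 UMIs in the ActD sham library, and was at least 13.1-fold lower against a floor of 3 UMIs. Among the lowest ratios were those of Naip6, a sensor of bacterial proteins (-1.67), and Nlrp1a (-1.44) for standard over ActD sham, and of Nlrp1a (-2.58), Il33 (-2.52) and Nlrp1b (-2.23) for 3 dpi over ActD sham. At 14 over 3 dpi Il18bp, which binds IL-18, had the highest ratio (10.4 against 2.96 CPM, 1.81) and Il18r1 the lowest (-2.38).

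In neutrophils, 5 of 24 pathway genes were higher and 6 lower in the standard than in the ActD sham library, 10 and 3 of 26 at 3 dpi over ActD sham, and 1 and 13 of 27 at 14 over 3 dpi. Of all genes, 15.2% and 12.7%, 49.3% and 8.41%, and 5.91% and 54.7% were higher and lower in these comparisons. Ninj1 stood at 102, 17.6, 344 and 78.5 CPM in the standard sham and ActD sham libraries and at 3 and 14 dpi. The DNA sensor Aim2 stood at 5.39, 99.2 and 11.8 CPM in the ActD sham, 3 dpi and 14 dpi libraries, and Nlrp1b at 1.47, 20.4 and 2.10 CPM, both highest at 3 dpi. Il1f9, which encodes IL-36γ, was lowest there, with 117, 49.97 and 135 CPM. P2rx7, the ATP receptor upstream of NLRP3, had the highest ratio of standard over ActD sham (3.22, 9.11 against 0.979 CPM), and Txnip stood at 1204 CPM at 3 dpi and 248 CPM at 14 dpi.

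Over 42 sums of classes and libraries, the genes of 11670 whose levels followed Il1b most closely by Pearson r were Cxcl2 (0.89), Il1rn (0.84), Slc7a11 (0.82), Ccrl2 (0.82) and Clec4e (0.82). Those nearest to Il1rn were Slc7a11 (0.87), Il1b (0.84), Arg2 (0.83), Tnfaip2 (0.81) and Gm5150 (0.79), and those nearest to Casp1 were Tnfaip8l2 (0.70), Notch2 (0.68), Soat1 (0.68), Rbpj (0.68) and Ms4a6b (0.67). Casp1 and Il1b had an r of 0.20. Sums of 1 library share its depth, dissociation and free RNA, so these values describe likeness only.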

How the data were processed

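Single-cell RNA sequencing (10x Chromium 3′) was done on CD45+ spinal cord cells in 4 libraries, 1 per condition, so no test between conditions was run. The deposited matrices hold raw UMI counts per gene and barcode, made by the authors with Cell Ranger on mm10, of which the matrix headers give version 3.0.1 or 3.1.0. UMIs count molecules, and a 3′ count is not comparable between genes. Gene positions and promoters are RefSeq and GENCODE entries of GRCm38.

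Cells were kept from 600 genes upwards and up to a mitochondrial UMI share of 10%, cells with UMIs of both Itgam and a lymphoid marker were removed, and doublets were removed at 0.8% per 1000 barcodes (Scrublet in scanpy 1.11.5). Each library was clustered (leidenalg 0.10.2, resolution 1.2, 2000 variable genes, 30 components, 20 neighbours) without the 10 genes and the pathway list. Clusters of at least 20 cells were named when 3 markers of a list were detected in 25% of cells, and the naming thresholds were set after the clusters were seen. The members and lists were chosen with earlier results of these data known. UMIs were summed per class and given as CPM with exact Poisson intervals, ratios with exact conditional intervals and shares with Clopper-Pearson intervals (95%, SciPy 1.17.1), and a count of 0 allows up to 3 counts. A gene counted as higher or lower at 2-fold or more with at least 20 UMIs in the pair. The ratio script was tested on simulated counts.

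Named genes were the 10 members, the 3 highest and 3 lowest pathway genes of a comparison, from which some are given, and the 5 nearest profiles by Pearson r of log2(CPM + 1) among genes with at least 200 UMIs. Alternatives were a merged clustering, Seurat 5.3.0 integration, resolution 0.6, doublets kept, a filter of 200 genes and 20%, mixed cells kept, TMM factors (edgeR 4.0.16), no minimum of UMIs, means of per-cell CPM, and other thinning. Neutrophil clusters with Ngp or Ltf among their 10 leading genes were compared alone after seeing the data.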

Additional observations from a re-analysis of the deposited data

Results flagged for a closer look

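Il1a differed in direction between classes in 1 comparison. For 3 dpi over ActD sham its log2 ratio was -1.53 in microglia and 5.28 in neutrophils. Each side is 1 library, the neutrophil value rested on 5 UMIs in the ActD sham library, and the difference between the classes was not tested.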

How the results depend on the processing

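Leaving out a library was not possible with 1 library per condition. No paired analysis was possible because each condition had 1 library. Of the 70 log2 ratios past 2-fold in the comparisons counted in the report, 572 of 578 alternative values kept the sign and 525 stayed past 2-fold. The exceptions in sign were Casp4 at 14 over 3 dpi in neutrophils (0.16 with TMM factors), Il1a of infiltrating macrophages over B cells at 3 dpi (-0.14 with doublets kept) and, over neutrophil clusters with Ngp or Ltf, Il1rn at 3 dpi over ActD sham (-0.56) and Il1b (-1.54), Il1rn (-0.75) and Nlrp3 (-1.501) at 14 dpi over ActD sham. The alternatives for 14 dpi over ActD sham, for border macrophages, monocytes and cDC2, and for the counts lower than in B cells were added after the data were seen. Outside the main 95% interval lay 234 of 1190 alternative CPM levels and, beyond the 6 of opposite sign, 226 of 1114 alternative log2 ratios. Of the shares of cells, taken without thinning or thinned to 2000 UMIs, 169 of 260 lay outside.

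In microglia, the count of genes at least 2-fold lower in the standard than in the ActD sham library was 1 with TMM factors in place of 2, and at 3 dpi over ActD sham 2 in place of 1 with merged clustering, with Seurat anchor integration and with Itgam-positive lymphoid cells kept. In neutrophils, the count lower in the standard sham library was 2 in place of 1 with merged clustering, with integration and with doublets kept. At 3 dpi over ActD sham, 3 in place of 5 were higher over the clusters with Ngp or Ltf, and 1 in place of 0 was lower with merged clustering, TMM factors and means of per-cell CPM. At 14 over 3 dpi, 2 in place of 0 were higher with TMM factors, and 3 in place of 6 were lower with TMM factors and with means of per-cell CPM. At 14 dpi over ActD sham, 0 in place of 3 were higher and 5 in place of 0 lower over the clusters with Ngp or Ltf. In border macrophages, 1 in place of 0 was lower in the standard than in the ActD sham library with no minimum of UMIs, and at 3 dpi over ActD sham with merged clustering, doublets kept and no minimum. At 14 over 3 dpi, the count higher in monocytes, 0 in the report, was 1 with merged clustering and integration, 2 with resolution 0.6 and doublets kept, and 3 with the looser cell filter and Itgam-positive lymphoid cells kept, and in cDC2 it was 1 in place of 0 with the looser filter. The counts higher than in B cells at 3 dpi, 4 in infiltrating macrophages and in microglia, rested on few UMIs of B cells. In infiltrating macrophages the count was 1 with merged clustering, resolution 0.6 and doublets kept, and 2 with integration, the looser filter and Itgam-positive lymphoid cells kept. In microglia it was 1 with integration and doublets kept, and 2 with the looser filter and Itgam-positive lymphoid cells kept. The count lower than in B cells was 0 with Itgam-positive lymphoid cells kept and 2 with means of per-cell CPM in place of 1 in neutrophils, and 1 with TMM factors and with Itgam-positive lymphoid cells kept in place of 3 in infiltrating macrophages. The cause of these changes was not tested. Several values rest on few UMIs, such as 5 of Il1a in ActD sham neutrophils and 2 of Il1rn in B cells at 3 dpi.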

Other observations

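Migratory dendritic cells held 136 CPM (103 to 175) of Il1rn at 3 dpi and 61.9 CPM (37.3 to 96.6) at 14 dpi. An unnamed cluster of 309 standard sham cells with Mertk and Adamts1 among its leading genes held 769 CPM (704 to 839) of Casp4, and an unnamed 14 dpi cluster of 360 cells with Ace and Adgre4 among its leading genes held 399 CPM (376 to 424) of Il1b. The latter cluster also held 97.0 CPM (85.9 to 109) of Il18.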
